A study of Mus musculus with 5 samples.

Results

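Kinesins are motor proteins that walk along microtubules or take them apart. Some of them build the mitotic spindle, and others carry cargo in cells that are not dividing. The centromere is the part of a chromosome where the kinetochore assembles, and its proteins, most of them named CENP, tie chromosomes to the spindle. The spindle checkpoint holds a cell in mitosis until every kinetochore is attached. Embryonic stem cells divide fast and carry these transcripts as a matter of course.

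The genes described here were chosen by symbol. They are all genes whose platform annotation symbol begins with Kif or Cenp, together with 17 named mitotic regulators. The array held 103 probes for 64 such genes, among 25697 probes for 16593 genes. Testing required a detection p below 0.05 on 2 or more of the 5 arrays. This left 71 probes for 49 of these genes, out of 8828 genes tested in all. The symbols reach beyond mitosis. Among the tested genes, 13 are transport kinesins or kinesin-associated genes, Cenpj encodes a centriole protein, and Kifap3 and Kifbp encode kinesin partners without a motor.

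The samples were total RNA of the mouse embryonic stem cell line 46C, in which the neural gene Sox1 carries a GFP reporter, hybridised to single-colour Illumina bead arrays with 1 array per sample. The N2B27 48 hr group (n = 3) was washed and replated for 48 hr in N2B27, a serum-free medium, alone. The ESC group (n = 2) was kept pluripotent in N2B27 with LIF, BMP and 100 nM PD173074, an inhibitor of the FGF receptor. Both groups grew without feeder cells or serum, and all cells are of 1 line. The labels do not say that replicates were separate cultures, so the p-values reflect variation among these 5 samples only, and that variation may be technical.

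On each array 42.1% to 47.5% of probes were detected, and the N2B27 48 hr replicate 1 array was the dimmest, with a mean signal of 187 against 235 to 264 on the others. Pearson's r over the 12605 tested probes was 0.986 to 0.992 within N2B27 48 hr, 0.995 within ESC and 0.915 to 0.927 between the groups. All 8 embryonic stem cell markers examined were detected, and their summed signal was 6268 to 8908 on N2B27 48 hr arrays, against 37889 to 38539 on ESC arrays. All 5 epiblast markers were higher in N2B27 48 hr. Of 7 fibroblast markers 4 were detected on 0 arrays, and the list summed to 281 to 320 in N2B27 48 hr and 60.2 to 68.3 in ESC. None of 5 endoderm markers was detected. In bulk RNA, fewer cells of a type and less RNA per cell cannot be told apart.

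Most of the spindle, centromere and kinesin transcripts tested did not pass the test after 48 hr in N2B27, while a small group fell and another rose. At an adjusted p under 0.05, 13 of 49 genes changed (26.5%), against 45.2% of all genes tested. Of these, 6 rose and 7 fell, or 12.2% and 14.3%, beside 23.8% and 21.4% of all genes. By fitted fold, Cenpt, Kif21a and Kif1a passed with a change of 2-fold or more (6.12% of the 49), against 12.7% of all genes. Cenpt was the 1 that was lower by that much, as 7.48% of all genes were, and Kif21a and Kif1a were higher, as 5.23% were. Kif1a was undetected on both ESC arrays, so a 2-fold change is not established for it. The median log2 change was -0.0033 for the 49 genes and 0.049 for all genes, and the median size of a change regardless of sign was 0.20 and 0.33.

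Intervals depend on the size of a change as well as on how tightly it was measured. The median SE was 0.138 over the 49 genes and 0.143 over all genes. The 95% interval of the change, not adjusted for the number of genes, lay wholly within 2-fold in 44 of 49 genes (89.8%), against 77.5% of all genes. It lay within 1.5-fold in 34 (69.4%), against 43.2% of all genes. The arrays of the groups did not overlap in 26 of the 49 genes (53.1%), 11 with N2B27 48 hr above ESC and 15 with it below, where 65% of all genes had no overlap. These shares describe the chosen genes and were not themselves tested.

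**Figure D1:**
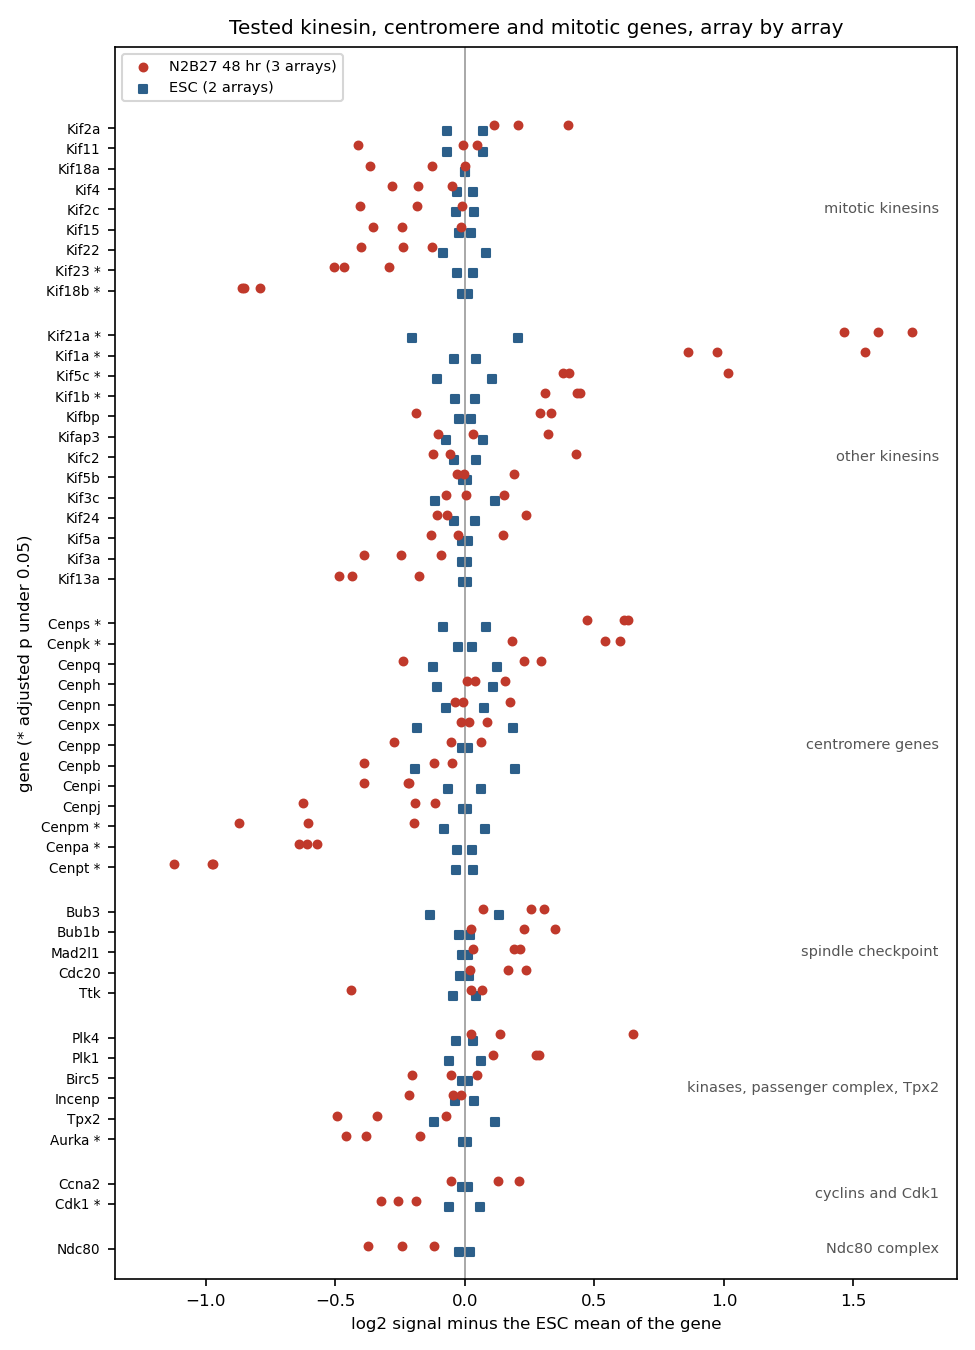
Each point is 1 array, as normalized log2 signal minus the gene's ESC mean (x axis), for the 49 tested genes grouped by role (y axis), with circles for N2B27 48 hr, squares for ESC and a star for an adjusted p under 0.05. Most circles lie within 0.5 of the ESC mean, Kif21a and Kif1a stand out to the right, and Cenpt and Kif18b to the left.

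The scale between arrays bears on these counts. Quantile normalization, used here, gave the all-gene median of 0.049. Scaling each array to its median over all probes put that median at -0.106, and the share of called genes that rose was then 29.7% over all genes, against 52.6%. With that scaling 2 of the 49 genes rose and 5 fell (14.3% together, against 29% of all genes), and their median was -0.20. With cyclic loess 5 rose and 11 fell (32.7% together, against 45.1% of all genes). The members' median minus that of all genes was -0.052 by quantile normalization, -0.098 by median scaling and -0.076 by cyclic loess. Leaving out ESC replicate 1 or ESC replicate 2 left fewer of the 49 genes past the test, and fewer of all genes. The medians of the 49 were then -0.042 and -0.059, against 0.068 and 0.063 for all genes. The remaining ESC array was then assumed to vary like the other group.

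Among mitotic kinesins 2 of 9 tested genes fell and 0 rose, with a median log2 change of -0.20. The share that fell, 22.2%, is near the 21.4% of all genes. The change was below 0 in 8 of the 9, also under median scaling and cyclic loess, and above 0 in 54.4% of all genes. Kif18b, a kinesin-8 that acts at the plus ends of astral microtubules, had log2 signals of 8.31, 8.32 and 8.38 in N2B27 48 hr, against 9.16 and 9.18 in ESC. Every N2B27 48 hr array lay below both ESC arrays by more than the spread within either group. Kif18b was 1.78-fold lower (log2 change -0.84 ± 0.0964 SE, limma adjusted p = 4.82e-05), its other probes fell by 0.53 and 0.33, and it passed under all 18 alternatives tried.

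Kif23, the motor subunit of centralspindlin, which organises the midzone for cytokinesis, had 7.83, 7.62 and 7.66 in N2B27 48 hr, against 8.16 and 8.09 in ESC. The groups did not overlap, and Kif23 was 1.34-fold lower (-0.42 ± 0.115, adjusted p = 0.0127). The call was lost under median scaling (adjusted p = 0.0702) and without ESC replicate 1 or 2 (adjusted p = 0.128 and 0.0815).

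Kinesins that build and steer the spindle were among those that did not pass. Kif11, the kinesin-5 that pushes spindle poles apart, had 8.31, 8.25 and 7.85 in N2B27 48 hr and 8.33 and 8.19 in ESC, with overlapping groups. Its log2 change was -0.12, with a 95% interval of -0.44 to 0.20. Kif15, which can share the work of Kif11, had a change of -0.20 (-0.46 to 0.05). The microtubule depolymerase gene Kif2c, which corrects faulty attachments, also had -0.20 (-0.45 to 0.05), and 9.91, 9.73 and 9.51 in N2B27 48 hr, against 9.88 and 9.95 in ESC. For Kif11, Kif15 and Kif2c the interval leaves out a change of 1.5-fold in either direction. Kif2c passed as a fall without N2B27 48 hr replicate 1 (adjusted p = 0.0461), and Kif15 under cyclic loess and without N2B27 48 hr replicate 3 (0.0259 and 0.0174).

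The chromokinesin gene Kif22 had a change of -0.26 (interval -0.48 to -0.03, adjusted p = 0.0604). It passed under cyclic loess and without N2B27 48 hr replicate 1. The chromokinesin gene Kif4 and Kif18a, which limits the length of kinetochore microtubules, each had -0.17, with the other probes of Kif4 at -0.16 and -0.075. Kif2a, a second depolymerase gene, was the sole mitotic kinesin with a change above 0 (0.24, adjusted p = 0.195). The probes of Kif20a and Kif2b were detected on 0 arrays.

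Centromere genes went both ways. Of the 13 in the test 3 fell (23.1%) and 2 rose (15.4%), against 21.4% and 23.8% of all genes. The list's median was -0.089. Under median scaling 3 fell and 0 rose. Cenpt, the constitutive centromere protein that links chromatin to the Ndc80 complex, had 9.26, 9.26 and 9.11 in N2B27 48 hr, against 10.26 and 10.20 in ESC. No other tested gene of the 49 fell as far. Cenpt was 2.03-fold lower (-1.02 ± 0.0926, limma adjusted p = 7.48e-06) and passed under all 18 alternatives. Its log2 change ran from -1.24 to -0.95 over them, so it was under 2-fold in some.

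Cenpa, the histone H3 variant that marks the centromere, had 12.30, 12.34 and 12.27 in N2B27 48 hr, against 12.88 and 12.94 in ESC. Its arrays lay close together within each group, and the groups were far apart for that spread. Cenpa was 1.52-fold lower (-0.61 ± 0.0679, adjusted p = 3.77e-05) and passed under all 18 alternatives. Cenpm had 8.15, 7.74 and 7.47 in N2B27 48 hr and 8.27 and 8.43 in ESC, and N2B27 48 hr replicate 1 lay close to ESC. It was 1.47-fold lower (-0.56 ± 0.173, adjusted p = 0.0233), and its other probes also fell. The call was lost without either ESC replicate (adjusted p = 0.0757 and 0.176) and without N2B27 48 hr replicate 2 (0.0758).

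Subunits of the same centromere assembly differed in direction. Cenpt works with the histone-fold proteins of Cenps and Cenpx. Cenps, which also serves in DNA crosslink repair, had 8.77, 8.78 and 8.63 in N2B27 48 hr, against 8.07 and 8.24 in ESC. It was 1.49-fold higher (0.57 ± 0.108, adjusted p = 0.00149), where Cenpt was lower, and it did not pass under median scaling (0.32, adjusted p = 0.462). For Cenpx the probes disagreed. The brightest gave 0.028 (adjusted p = 0.906) and another -0.29 (adjusted p = 0.118). The other probe fell (limma adjusted p = 0.00894). That probe was undetected on every N2B27 48 hr array and entered the test through the ESC arrays alone. Its ESC mean was 1.29-fold above the lowest level of a detected probe on the N2B27 48 hr arrays, with no allowance for error.

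In the subcomplex of Cenph, Cenpi, Cenpk and Cenpm, Cenpk ran against Cenpm. Cenpk had 6.16, 6.52 and 6.57 in N2B27 48 hr, against 5.947 and 6.004 in ESC. It was 1.36-fold higher (0.44 ± 0.162, adjusted p = 0.0478), but the call was lost under 8 of 18 alternatives, with adjusted p up to 0.612, among them leaving out any 1 array other than N2B27 48 hr replicate 1. Cenph (0.069) and Cenpi (-0.27, adjusted p = 0.116) did not pass, though Cenpi passed under cyclic loess.

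The other centromere genes did not pass. Cenpn, which reads the Cenpa nucleosome, had a change of 0.042 with an interval of -0.20 to 0.29. Cenpp and Cenpq, of the outer part of the constitutive network, had -0.089 and 0.095. Cenpb, which binds a motif of the satellite repeats, had -0.19, and the centriole gene Cenpj had -0.31 (adjusted p = 0.168). Their intervals, -0.52 to 0.15 and -0.69 to 0.06, are wide, and for Cenpj, whose N2B27 48 hr arrays all lay below ESC, a fall of 1.5-fold lies inside it. The probes of Cenpc1, Cenpe and Cenpo were detected on 0 arrays, and no probe carried the symbol Cenpf.

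By limma, 0 of 5 spindle checkpoint genes passed, against 45.2% of all genes, and 0 had an unadjusted p under 0.05. Cdc20, which activates the anaphase-promoting complex and is the checkpoint's target, had 11.69, 11.76 and 11.54 in N2B27 48 hr, against 11.54 and 11.50 in ESC. Its change was 0.14 (interval -0.04 to 0.32), and its other probes gave 0.15, 0.19 and 0.20. Mad2l1, which encodes the inhibitor of Cdc20, had 9.68, 9.85 and 9.87 in N2B27 48 hr and 9.64 and 9.67 in ESC, a change of 0.14 (-0.06 to 0.35). Bub1b, which encodes BubR1, had 8.81, 8.69 and 8.49 in N2B27 48 hr and 8.44 and 8.49 in ESC (0.20, -0.06 to 0.46). In each of these every N2B27 48 hr array lay above both ESC arrays, with the closest arrays equal to 2 decimals in Cdc20 and Bub1b.

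Bub1b and Cdc20 did pass when N2B27 48 hr replicate 3 was left out (adjusted p = 0.0247 and 0.0303). Bub3 had 0.21 with overlapping groups. The kinase gene Ttk, which starts checkpoint signalling, had 4.38, 4.89 and 4.84 in N2B27 48 hr and 4.78 and 4.86 in ESC, near the lowest level of detected probes (4.59 to 4.75). By quantile normalization 4 of 5 changes were above 0, and under median scaling 0 were. The all-gene median was also lower under median scaling. Against the all-gene median of each setting, 4 of 5 changes lay above it under both, and 3 of 5 under cyclic loess. The Bub1 probe was detected on 0 arrays.

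Of 6 mitotic kinase, passenger complex and spindle assembly genes, 1 fell (16.7%, against 21.4% of all genes). Aurka, the kinase that matures centrosomes, had 10.14, 10.35 and 10.07 in N2B27 48 hr, against 10.52 and 10.53 in ESC. It was 1.26-fold lower (-0.34 ± 0.0984, adjusted p = 0.0174), and the call was lost under median scaling (adjusted p = 0.137), without the variance trend (0.062) and without ESC replicate 1 or 2 (0.0998 and 0.116). Tpx2, which encodes the activator of Aurka, had 7.36, 7.63 and 7.20 in N2B27 48 hr and 7.82 and 7.58 in ESC, with overlapping groups (-0.30, adjusted p = 0.124).

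Plk1, the kinase that drives mitotic entry and exit, had 10.67, 10.68 and 10.50 in N2B27 48 hr, against 10.33 and 10.45 in ESC. Its change was 0.22 (interval 0.02 to 0.42, adjusted p = 0.0674), and it passed without N2B27 48 hr replicate 3 (adjusted p = 0.0109). Plk4, which starts centriole duplication, had 0.27 (adjusted p = 0.287) with 1 high array, N2B27 48 hr replicate 3. In the chromosomal passenger complex, Birc5, which encodes survivin, had 10.83, 10.73 and 10.58 in N2B27 48 hr and 10.77 and 10.79 in ESC. Its change was -0.070 (interval -0.27 to 0.13), and its other probes gave 0.045 and -0.035. Incenp, the scaffold of that complex, had -0.092 (-0.32 to 0.14).

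Cdk1, the cyclin-dependent kinase of mitosis, had 9.55, 9.62 and 9.48 in N2B27 48 hr, against 9.74 and 9.87 in ESC. The groups did not overlap, and Cdk1 was 1.2-fold lower (-0.26 ± 0.0921, adjusted p = 0.0432). This was the smallest change that passed, and 8 of 18 alternatives lost it, with adjusted p up to 0.322, including leaving out any 1 array other than N2B27 48 hr replicate 3. Its other probes were not tested, detected on 0 arrays and 1 array. Ndc80, the subunit of the kinetochore that grips microtubules, had 7.26, 7.39 and 7.13 in N2B27 48 hr and 7.49 and 7.53 in ESC (-0.25, interval -0.52 to 0.03).

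Ccna2, which encodes cyclin A2, lay just inside the detection filter, with detection p of 0.195, 0.0213 and 0.0388 in N2B27 48 hr and 0.0689 and 0.115 in ESC. Kif17 and Kif1c lay just outside it, each with a detection p under 0.05 on 1 array (0.0426 and 0.0464). Of the 15 genes not tested, the other 13 were detected on 0 arrays, among them Ccnb2, Nuf2, Bub1, Kif20a and Cenpe. These 5 are genes of dividing cells, while others of the 13 are kinesins outside mitosis. For none of the 13 does anything about expression follow from a probe below background.

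**Figure D2:**
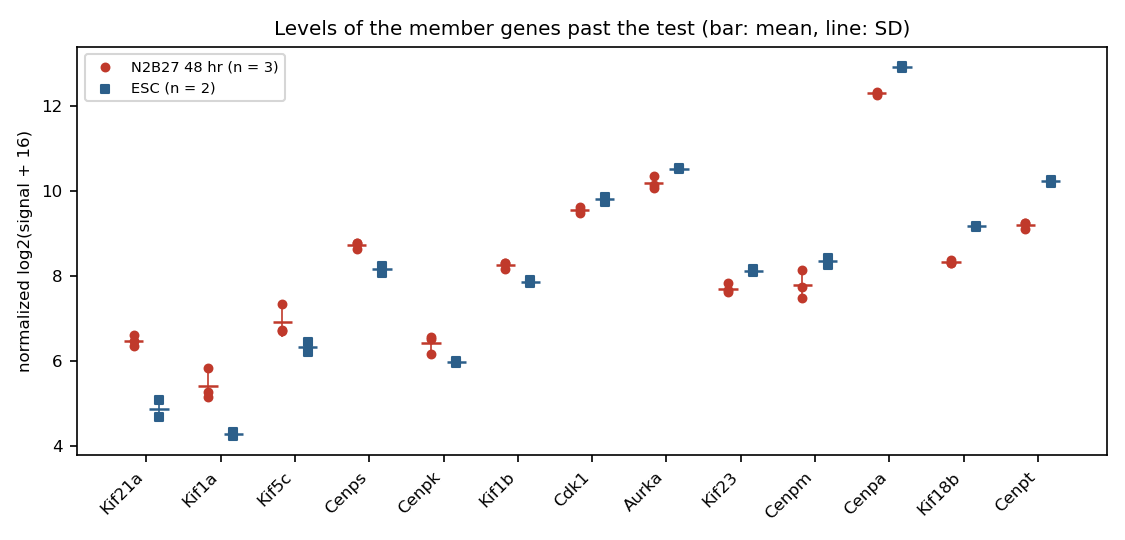
Normalized log2(signal + 16) (y axis) of the 13 genes past the test (x axis, from the largest rise to the largest fall), with each array as a point, a bar at the mean and a line for the SD, N2B27 48 hr (n = 3) left of ESC (n = 2). Groups do not overlap in any of the 13, and levels of different probes are not comparable with each other.

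The promoters of the genes that fell are shown because many mitotic promoters carry a cell cycle genes homology region (CHR), the element read by the MuvB complex and its partner B-Myb, next to CCAAT boxes, the element bound by NF-Y. RefSeq windows of the build GRCm38.p6, 250 bases before to 50 after each gene start, were matched to 56 of the 64 genes, in 64 windows. CHR was searched as TTTGAA or TTTAAA and the CCAAT box as CCAAT, on both strands. Of the 7 genes that fell, 5 are printed, to 30 bases after the start, Cenpt at chr8:105851979-105852258 (minus strand), Kif18b at chr11:102925095-102925374 (minus), Cenpa at chr5:30666636-30666915 (plus), Kif23 at chr9:61946770-61947049 (minus) and Cdk1 at chr10:69352883-69353162 (minus). Kif21a, which rose most, is at chr15:91049922-91050201 (minus). Capitals mark CHR and CCAAT matches, with ATTGG for a CCAAT box on the other strand, read 5′ to 3′ along the gene.
Cenpt: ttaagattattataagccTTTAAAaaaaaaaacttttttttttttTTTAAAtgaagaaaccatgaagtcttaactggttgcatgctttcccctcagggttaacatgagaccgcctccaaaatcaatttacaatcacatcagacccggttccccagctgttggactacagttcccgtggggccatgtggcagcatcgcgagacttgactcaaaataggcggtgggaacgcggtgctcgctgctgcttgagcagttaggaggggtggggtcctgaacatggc
Kif18b: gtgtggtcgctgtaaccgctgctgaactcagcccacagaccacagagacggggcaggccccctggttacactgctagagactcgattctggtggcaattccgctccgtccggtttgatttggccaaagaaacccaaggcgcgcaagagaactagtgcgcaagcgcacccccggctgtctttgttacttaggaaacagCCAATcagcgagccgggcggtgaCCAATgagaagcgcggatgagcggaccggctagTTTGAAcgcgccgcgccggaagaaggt
Cenpa: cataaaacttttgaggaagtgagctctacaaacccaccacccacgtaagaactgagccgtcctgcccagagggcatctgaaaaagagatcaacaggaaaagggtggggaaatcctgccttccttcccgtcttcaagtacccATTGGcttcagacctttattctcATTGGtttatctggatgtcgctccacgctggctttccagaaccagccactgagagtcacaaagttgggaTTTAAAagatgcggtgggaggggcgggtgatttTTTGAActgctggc
Kif23: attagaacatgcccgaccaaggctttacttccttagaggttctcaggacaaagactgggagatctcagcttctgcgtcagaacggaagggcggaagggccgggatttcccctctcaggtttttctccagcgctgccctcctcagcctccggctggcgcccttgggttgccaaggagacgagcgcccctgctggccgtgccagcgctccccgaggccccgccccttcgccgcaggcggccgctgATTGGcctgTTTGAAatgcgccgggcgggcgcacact
Cdk1: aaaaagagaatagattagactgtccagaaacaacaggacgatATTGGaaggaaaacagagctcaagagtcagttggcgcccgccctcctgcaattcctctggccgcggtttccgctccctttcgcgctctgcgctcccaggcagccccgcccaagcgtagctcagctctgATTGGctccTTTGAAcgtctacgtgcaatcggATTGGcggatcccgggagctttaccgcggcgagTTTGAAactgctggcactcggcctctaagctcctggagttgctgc
Kif21a: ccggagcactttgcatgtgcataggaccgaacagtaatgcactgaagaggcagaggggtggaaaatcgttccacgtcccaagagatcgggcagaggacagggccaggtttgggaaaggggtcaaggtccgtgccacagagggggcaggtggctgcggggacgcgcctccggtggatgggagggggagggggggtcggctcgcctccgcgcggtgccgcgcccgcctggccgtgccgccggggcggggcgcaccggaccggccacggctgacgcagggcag

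In Kif18b and Kif23 a CHR begins 4 and 3 bases after the gene start, with CCAAT boxes within 100 bases before it. In Cenpa a CHR lies on each side of the start, and in Cdk1 the nearer of 2 begins 15 bases before it. The Cenpt window holds TTTAAA far upstream, with both matches starting in the first 50 bases of the window, and no CCAAT box. The Kif21a window holds neither motif, but a window of Kif1a, the second largest rise, holds TTTGAA 44 bases before its start. The other window of Kif1a holds neither motif. Of the 7 genes that fell, 5 hold a CHR within 50 bases of the start, and Cenpm and Cenpt do not. Of the 6 genes that rose, which have 10 windows, only Kif1a holds one, in 1 window. Of these 6 genes, 4 are transport and other kinesins, so direction and role are not separated here.

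A CHR within 50 bases of the start, a distance chosen after the positions were seen, was found in 42.2% of 45 windows of members other than transport kinesins. It was found in 5.26% of 19 windows of transport and other kinesins, in 6.79% of 21263 windows of protein-coding genes and in 8.28% of all 32851 windows. Among members that did not pass the test it was found in 33.3% of 33 windows, including those of Cdc20, Plk1, Kif11 and Bub1b. CCAAT was found in the 100 bases before the start in 46.7% of windows of members other than these kinesins and in 21.1% of those of protein-coding genes. A match is a description of the letters in this window.

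**Figure D3:**
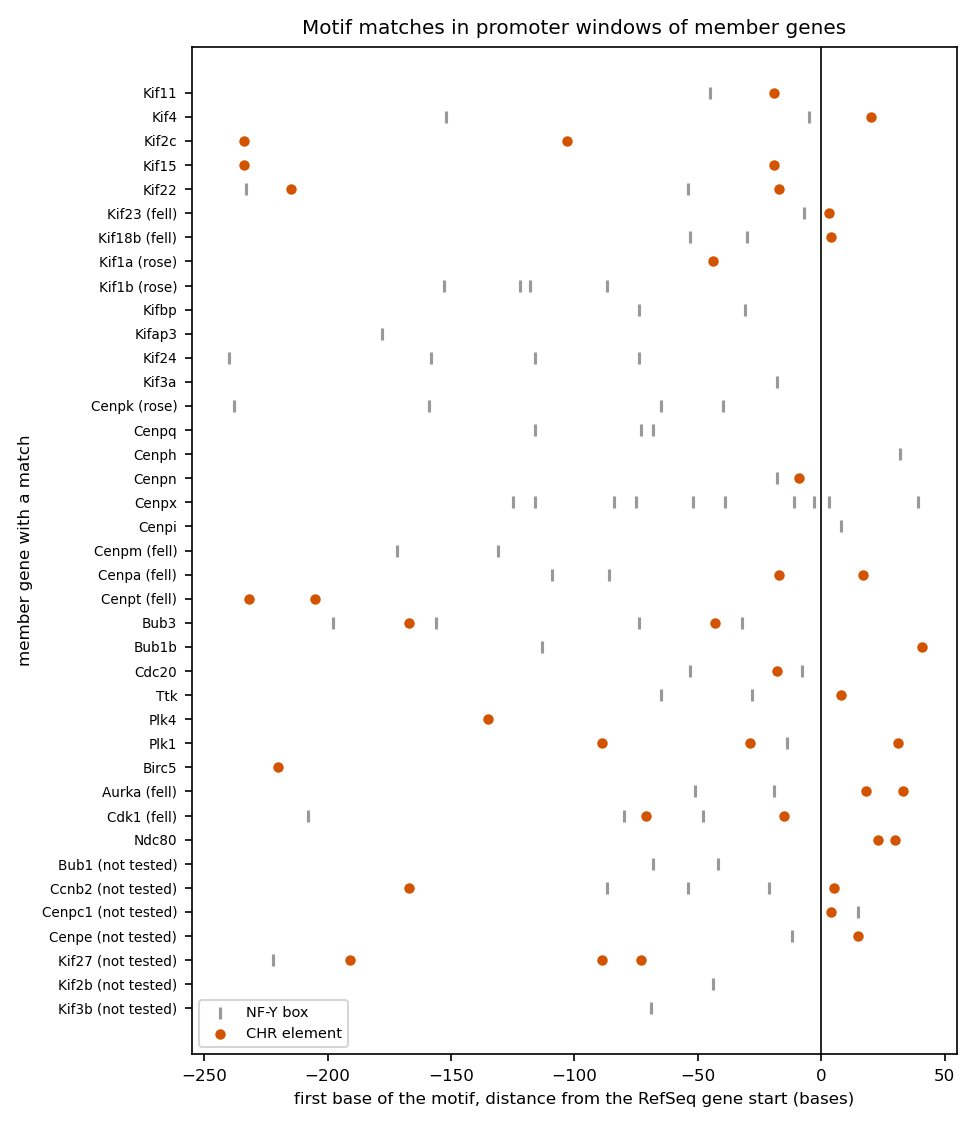
Position of each CHR (circles) and NF-Y box, the CCAAT motif (ticks), as the distance of its first base from the RefSeq gene start in bases (x axis), for every member gene with a match (y axis), with all windows of a gene on 1 row. A CHR lies within 50 bases of the start in 20 of the 64 windows, of which 5 belong to genes that fell, 11 to genes that did not pass the test, 1 to Kif1a, which rose, and the rest to the untested Ccnb2, Cenpc1 and Cenpe.

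Kinesins outside mitosis gave the largest rises. Among 13 transport and other kinesin genes in the test, 4 rose (30.8%) and 0 fell, against 23.8% and 21.4% of all genes. The list's median was 0.082. Under median scaling 2 rose and 1 fell, and the median was -0.064. Kif21a, a kinesin-4 that restrains microtubule growth at the cell cortex, had 6.60, 6.47 and 6.34 in N2B27 48 hr, against 5.08 and 4.67 in ESC. Kif21a was 3.02-fold higher (1.59 ± 0.169, adjusted p = 2.5e-05) and passed under all 18 alternatives. The size depended on the background step, with a log2 change of 0.88 without background correction, 0.91 in the authors' normalized table, 0.95 at an offset of 50 and 2.39 at an offset of 1, so it was under 2-fold in 3 of these.

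Kif1a, the motor of synaptic vesicle precursors in axons, had 5.26, 5.15 and 5.83 in N2B27 48 hr, against 4.33 and 4.24 in ESC. N2B27 48 hr replicate 3 was the highest array. The probe was undetected on both ESC arrays, so it entered the test through the N2B27 48 hr arrays alone. Kif1a rose (limma adjusted p = 0.000925), and its N2B27 48 hr mean was 1.74-fold above the lowest level of a detected probe on the ESC arrays. The fitted log2 change was 1.13, and ran between 0.53 at an offset of 50 and 2.59 at an offset of 1. The bound sets the N2B27 48 hr mean against the lowest level of a detected probe on each ESC array.

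Kif5c, a kinesin heavy chain best known in neurons, had 6.73, 6.71 and 7.34 in N2B27 48 hr, against 6.43 and 6.22 in ESC, again highest on N2B27 48 hr replicate 3. It was 1.51-fold higher (0.60 ± 0.195, adjusted p = 0.0292), and the call was lost under median scaling (adjusted p = 0.333) and without either ESC replicate (0.0728 and 0.201). Kif5a and the ubiquitous Kif5b had -0.0033 and 0.052, and both were dim. Kif5b had 4.85, 4.65 and 4.63 in N2B27 48 hr and 4.66 and 4.65 in ESC.

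Kif1b, which carries mitochondria and vesicles, had 8.30, 8.31 and 8.17 by its brightest probe in N2B27 48 hr, against 7.82 and 7.90 in ESC. By that probe it was 1.32-fold higher (0.40 ± 0.108, adjusted p = 0.0124). Of its 5 tested probes the other 4 did not pass, with changes of 0.29, 0.23, 0.097 and -0.017. The call for Kif1b thus rests on 1 probe. It was lost with the probe of smallest mean detection p (adjusted p = 0.715) and also under median scaling (adjusted p = 0.746) and without either ESC replicate (0.137 and 0.0744).

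Neuronal markers were examined beside these motors. Of 6 neuronal markers, Dcx, Snap25, Syt1 and Tubb3 were detected on 0 arrays, Map2 rose and Stmn2 fell. The list summed to 161 to 251 in N2B27 48 hr and 257 to 275 in ESC. Their part in the rises of Kif1a and Kif5c was not tested.

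The kinesin-2 genes, whose motor serves the cilium, did not pass. Kif3a had 6.54, 6.69 and 6.84 in N2B27 48 hr and 6.92 and 6.94 in ESC by its brighter probe (-0.24, adjusted p = 0.185), while the other gave 0.12. Kif3c had 0.028, and Kifap3, their cargo-binding partner, had 0.084. Kif13a, an endosome motor, had 5.45, 5.50 and 5.76 in N2B27 48 hr, against 5.94 and 5.93 in ESC. It missed the threshold (-0.37, adjusted p = 0.0783), and it passed as a fall under median scaling, cyclic loess and without N2B27 48 hr replicate 3. Kif24, which holds back cilium assembly, had 0.020, Kifc2 0.082 and Kifbp, which blocks several kinesins, 0.14. The probes of Kif12, Kif27, Kif3b, Kif9 and Kifc3 were detected on 0 arrays.

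**Figure D4:**
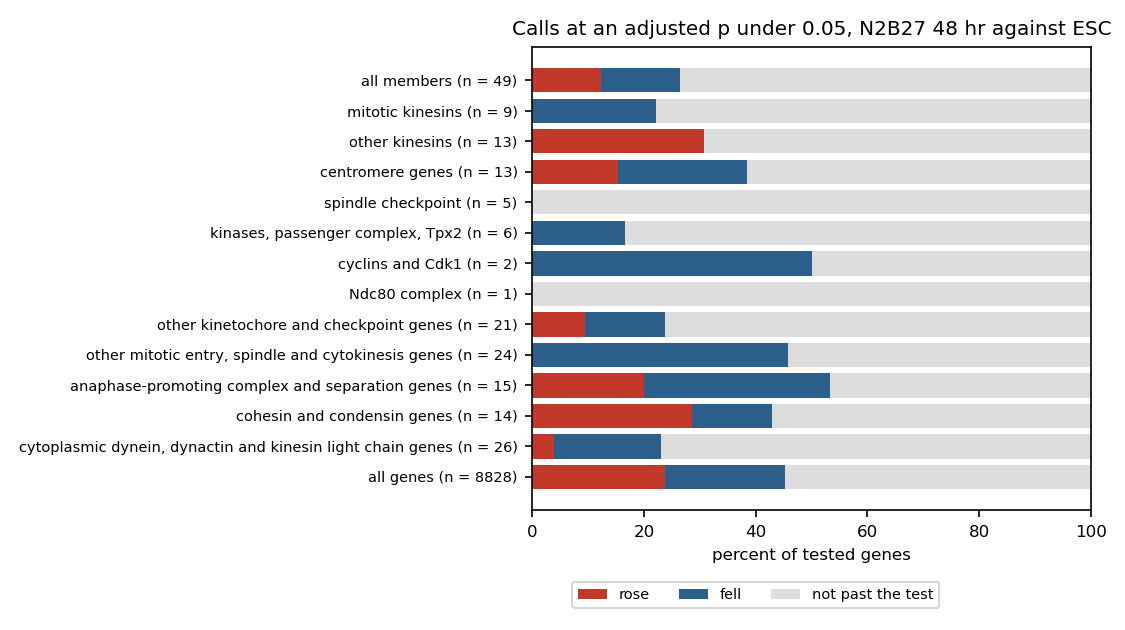
Percent of tested genes (x axis) that rose, fell or did not pass at an adjusted p under 0.05, for the members, their role classes, neighbouring mitotic lists and all genes (y axis, n in parentheses). All 11 calls among the other mitotic entry, spindle and cytokinesis genes are falls, and all 4 among the transport and other kinesins are rises. Over all genes 23.8% rose and 21.4% fell.

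Neighbouring genes of the same processes were examined as lists chosen for their role, with earlier results of these data known. Of 24 further mitotic entry, spindle and cytokinesis genes, 11 fell (45.8%) and 0 rose, against 21.4% and 23.8% of all genes. The list's median was -0.37. Mybl2, which encodes B-Myb, was 4.82-fold lower (-2.27 ± 0.135), the abscission gene Cep55 3.36-fold lower and Ccnf, which encodes cyclin F, 1.97-fold lower. These passed under all 18 alternatives, with a log2 change of -2.25 to -1.12 for Cep55. Foxm1, another activator of mitotic genes, had 0.21 and did not pass (adjusted p = 0.271). The count was 11 under median scaling and 14 under cyclic loess, while 1802 and 2224 of all 8828 genes fell. Without ESC replicate 1 or 2 fewer of the list fell, and fewer of all genes passed. The list's medians were then -0.31 and -0.41, over 22 and 21 genes tested. Among the falls, Cdc25b was undetected on every N2B27 48 hr array and entered the test through the ESC arrays alone.

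Among 21 further kinetochore and checkpoint genes 3 fell (14.3%) and 2 rose (9.52%), against 21.4% and 23.8% of all genes. The list's median was -0.073. Zw10, which recruits dynein to kinetochores, was 1.98-fold lower, and Spc24, a subunit of the Ndc80 complex, was 1.63-fold lower, while the cohesin stabiliser gene Cdca5 was 1.38-fold higher, a call lost under median scaling and without ESC replicate 2. Under median scaling 4 of this list fell and 0 rose. In the anaphase-promoting complex and chromosome separation list, 5 of 15 fell (33.3%) and 3 rose (20%), with its subunit gene Cdc23 2.18-fold lower. Without ESC replicate 1 the counts were 1 and 1, without ESC replicate 2 they were 1 and 0, and under median scaling 4 and 0. Cohesin and condensin genes rose in 4 of 14 (28.6%) and fell in 2 (14.3%), and the cohesin gene Stag2 was 3.66-fold higher. Without ESC replicate 1 or 2 and under median scaling 0 of them fell, and 2, 1 and 1 rose. Of 26 dynein, dynactin and kinesin light chain genes, 1 rose and 5 fell (23.1% together, against 45.2% of all genes). Among those that fell, Trak1 was 2.06-fold lower and Klc4, a light chain of kinesin-1, was 1.76-fold lower. The gene that rose was another light chain gene, Klc3, which was 1.52-fold higher. The Klc3 call was lost under 2 of 18 alternatives, median scaling among them. Without ESC replicate 1 or 2 fewer of this list fell.

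**Figure D5:**
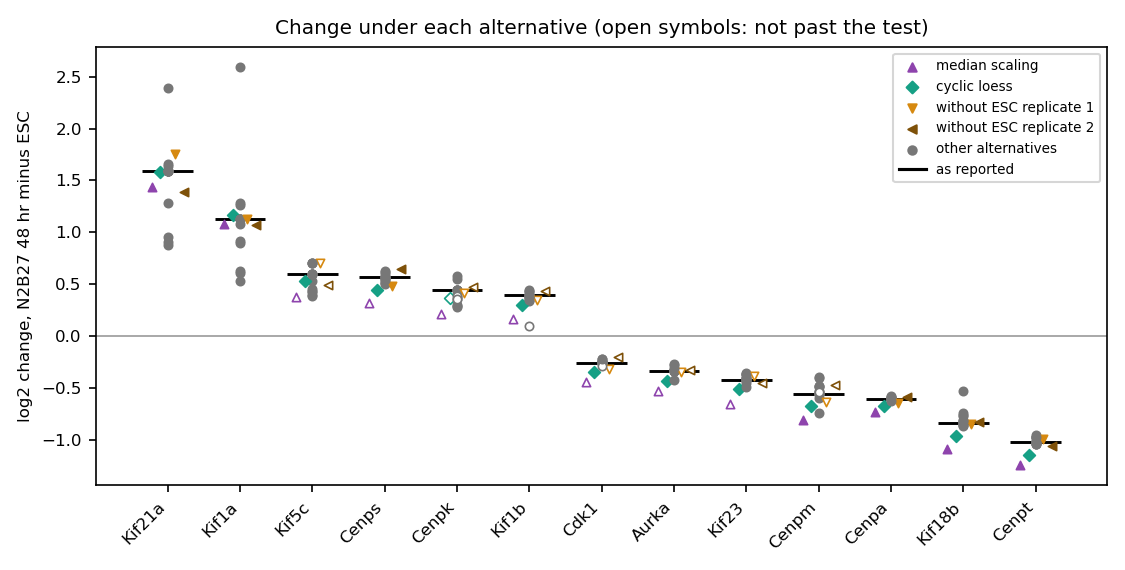
Log2 change, N2B27 48 hr minus ESC (y axis), of the 13 genes past the test (x axis), as reported (bars) and under each of 18 alternatives (symbols, open where the adjusted p was 0.05 or more). No change crosses 0, and the symbols of Cenpt, Cenpa, Kif18b, Kif21a and Kif1a are all filled. Kif1a, undetected in ESC, has 17 alternatives. Median scaling lies below the reported value in each gene.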

How the data were processed

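Per the file headers, the authors deposited an average bead signal intensity and a detection p-value per probe and array, not normalized between arrays. BeadStudio was used, per the submitters' processing notes, with no version given in the sources used here. The authors also deposited normalized intensity values, which are linear, not centred (column medians 65.2 to 65.3) and rank each array's probes identically, by a method the sources used here do not state.

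Background was corrected by normexp with control levels inferred from the detection p-values, an offset of 16 was applied, and log2 values were quantile normalized. Fold changes are thus on the log2(value + 16) scale and understate those of dim genes. N2B27 48 hr was compared with ESC with limma 3.58.1 in R 4.3.3 (eBayes with trend, two-sided, Benjamini-Hochberg over 12605 probes, threshold 0.05), after a check on simulated data. Values after ± are standard errors. The number of arrays limits the precision (median SE 0.138 over members). The brightest tested probe represented a gene. Of 11 genes with several tested probes, none had opposite calls and 2 had probes past and not past the test.

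Names came from the platform annotation (23978 probes with 1 symbol, 1719 unnamed here), updated by Entrez identifier for 23962. The files name no genome build, and promoter coordinates are those of RefSeq. The members and lists were chosen with earlier results of these data known. Any member could be named. Full values went to members with the largest changes (up to 10 each way), members with disagreeing probes and 20 key members. Examples from neighbouring lists were those with the largest changes, up to 3 each way, and Foxm1 and Cdc25b were chosen after their values were seen. The alternatives were other background corrections, offsets, normalizations, filters and variance priors, the authors' normalized table, another probe per gene, each array left out and a replicate block. Figures were drawn with matplotlib 3.10.9.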

Additional observations from a re-analysis of the deposited data

How the results depend on the processing

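Under 18 alternatives no call for a named gene changed sign. Cenpt, Cenpa, Kif18b and Kif21a passed under all of them. Kif1a passed under the 17 in which it was tested, but it was undetected in ESC and was not tested where detection on all 5 arrays was required. With the array medians aligned, 2 members rose in place of 6, the members' median was -0.20, and 760 genes rose in all in place of 2100. With cyclic loess 11 members fell in place of 7, and 2224 genes fell in all in place of 1889. Leaving out 1 array at a time gave 3 to 8 members that rose and 3 to 9 that fell, with medians of -0.083 to -0.016, and 1272 to 2229 genes that rose and 1068 to 2005 that fell in all. The lowest counts came without an ESC array, with 8294 and 8350 genes tested, against 8552 to 8681 without an N2B27 48 hr array. The cause was not tested. With the replicate number as a block 8 members rose and 8 fell (32.7% together, against 49.3% of all genes), and 11 of the 13 calls remained. Cdk1 and Cenpk did not pass (limma adjusted p = 0.0514 and 0.0607), while Bub1b, Cdc20, Kif13a, Kif15 and Plk1 did. N2B27 48 hr replicate 3 has no ESC array of its number, so that fit draws the change from the other arrays. The same genes were gained when N2B27 48 hr replicate 3 was left out. Same-numbered arrays did not deviate together (r of deviations -0.085 and -0.028), so the numbers were not taken as pairs. Without the detection filter 5 members rose and 6 fell (17.2% together, against 22.1% of all genes). Dim probes limit what can be said of the 15 untested genes.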
